A study of Mus musculus with 8 samples.

Results

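The genes read in control neural progenitors at Day 4 of N2B27 differentiation are described here, from the 4 control arrays of the 8 arrays in the series. Members were chosen by the genotype label, Sox3 positive, and by no measured value. The controls are R1 mouse ES cells in which the *Sox3* gene is intact but conditional. The paper calls them wild type, and all 4 cultures come from this 1 line. N2B27 is a serum-free medium in which ES cells grown as a monolayer adopt a neural fate. Each differentiation ran to Day 4, when RNA was taken, replicates 1 and 2 from batch 1 and replicates 3 and 4 from batch 2, where a batch is an independent differentiation series. Before differentiation the ES cells were kept on gelatine according to the labels and on irradiated fibroblast feeders according to the paper. Each culture was read on its own Affymetrix GeneChip Mouse Gene 1.0 ST array, and the *Sox3* null arrays were not used.

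Neural progenitors are dividing cells of the neural tube and its culture equivalents. They are known by SoxB1 transcription factors, intermediate filaments such as nestin and vimentin, and Notch signalling, which holds neurogenesis back. Along the head to tail axis the forebrain is marked by Otx and Emx factors among others, the hindbrain by Gbx2, Krox20 (*Egr2*) and the anterior Hox genes, and the spinal cord by more posterior Hox genes. From dorsal to ventral the neural tube is divided by Pax, Dbx, Nkx and Olig factors.

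Signals are log2 values per transcript cluster, a group of probes along a transcript. The rows with 1 gene symbol gave 19938 genes, and the brightest row stood for a symbol carried by several rows. The median gene read 7.64, and genes ran from 3.72 to 14.60. Signals of different genes also depend on their probes, so an order of signals is not an order of transcript numbers, and in a bulk sample fewer cells of a type and less RNA per cell cannot be told apart. The file holds no detection call, so each gene was set against a pair of levels taken on the same array. The receptor level was the 95th percentile of 1178 olfactory and vomeronasal receptor genes, which read 6.19, 6.11, 6.14 and 6.14 on replicates 1 to 4. The off-tissue level was the 95th percentile of 52 measured genes of skeletal and heart muscle, liver, blood and germ cells, and read 8.43, 8.39, 8.19 and 8.14. On all 4 arrays 13837 genes lay above the receptor level, 69.4% of the 19938, and 7816 lay above the off-tissue level, 39.2%. The off-tissue level was added because 11 of 14 muscle genes already lay above the receptor level. Neither level separates used from unused genes with certainty, and the members of the 4 lists that set the off-tissue level cannot be judged by it.

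**Figure D1:**
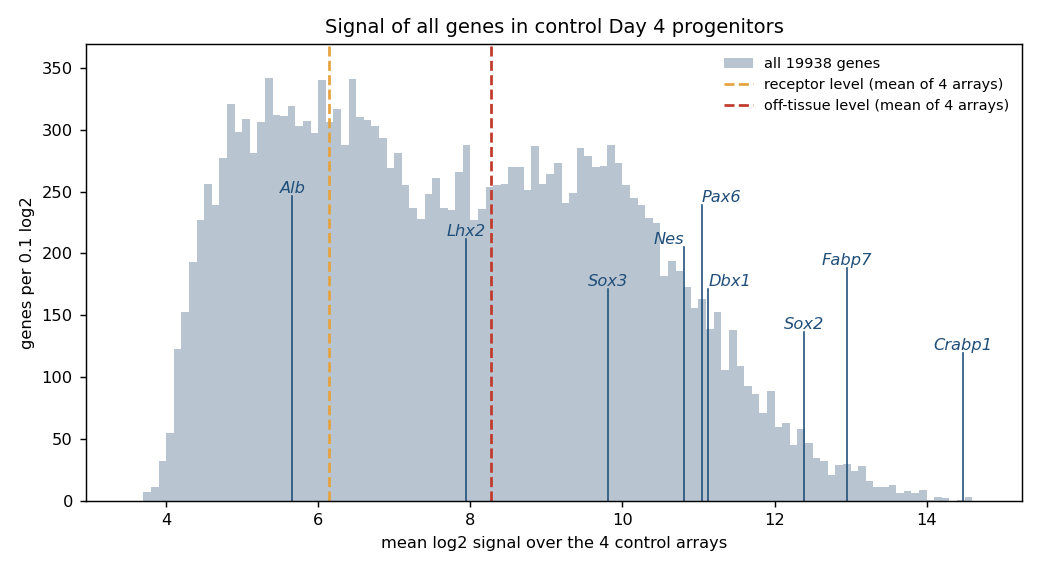
Histogram of the mean log2 signal of 19938 genes over the 4 control arrays (horizontal axis, bins of 0.1), with the receptor and off-tissue levels averaged over the arrays as dashed lines. *Sox2*, *Pax6*, *Fabp7*, *Nes* and *Dbx1* lie to the right of both levels, *Lhx2* between them and the liver gene *Alb* to the left of both.

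The 5 markers by which these cells were to be recognised were all above both levels on all 4 arrays. *Fabp7*, a fatty acid binding protein of radial glia, read 12.85, 12.88, 13.11 and 12.95 on replicates 1 to 4. *Sox2*, a SoxB1 factor of neural and pluripotent cells, read 12.34, 12.37, 12.48 and 12.37. *Dbx1*, a homeodomain factor of intermediate neural tube progenitors, read 11.25, 11.20, 11.05 and 11.01. By rank of mean signal among the 19938 genes these 3 stood at 159 (*Fabp7*), 345 (*Sox2*) and 1508 (*Dbx1*). *Pax6*, a paired domain factor of neural progenitors, read 11.02, 10.98, 11.07 and 11.10. *Nes*, the gene of the intermediate filament nestin, read 11.04, 11.04, 10.46 and 10.71. Both batch 2 arrays lay below both batch 1 arrays for *Nes* and *Dbx1*, and above them for *Fabp7* and *Pax6*. Batches lay apart in this way, in either direction, for 50.4% of all genes.

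Of 21 measured neural progenitor markers, 21 lay above the receptor level and 20 above the off-tissue level, with a median signal of 10.82. *Vim*, which encodes vimentin, was the brightest of them at 13.54 ± 0.052 (SD, n = 4). *Sfrp1*, a secreted Wnt antagonist of the neural plate, followed at 13.22 ± 0.046 (SD, n = 4). *Cdh2*, the N-cadherin gene of neuroepithelium, read 12.49 and the zinc finger gene *Zic2* 12.26. At the dim end *Lhx2*, a LIM homeodomain factor of forebrain and eye progenitors, read 8.03, 8.14, 7.86 and 7.73. It was the 1 progenitor marker that did not pass the off-tissue level, and it also belongs to the forebrain list.

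The Sox family was read across its whole range. All 20 measured Sox genes lay above the receptor level and 9 lay above the off-tissue level, with a family median of 8.09. The 9 were the SoxB genes *Sox2* (12.39), *Sox1* (11.33), *Sox21* (10.82) and *Sox3* (9.81), the SoxC genes *Sox11* (11.71), *Sox12* (10.72) and *Sox4* (9.71), and *Sox13* (10.83) and *Sox9* (10.21). *Sox3*, which is present in these control cells, read 9.92, 9.84, 9.73 and 9.76. *Sox1*, the SoxB1 gene most restricted to neural tissue, read 11.47, 11.46, 10.97 and 11.41, so replicate 3 stood below the other arrays. *Sox10*, a factor of neural crest and oligodendroglia, read 6.85, and the endoderm factors *Sox17* and *Sox7* read 6.41 and 6.42. *Sox30*, a gene of the testis, was the dimmest at 6.32.

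Among 9 measured Pax genes, 9 lay above the receptor level and 4 above the off-tissue level. These were *Pax6* (11.04), *Pax3* (10.38), *Pax7* (9.52) and *Pax2* (8.70). *Pax5* (7.18) and *Pax8* (6.86), which mark the isthmus and the ear with *Pax2*, and the genes of sclerotome and pharynx *Pax1* (6.76) and *Pax9* (6.52) lay between the levels. The pancreatic gene *Pax4* read 6.25. Of 11 measured Pou genes 5 lay above the off-tissue level. They were *Pou5f1* (10.77), the Oct4 gene of pluripotent cells, and the class III genes of neural progenitors *Pou3f1* (9.59), *Pou3f2* (9.54), *Pou3f3* (8.77) and *Pou3f4* (8.66). The sensory neuron gene *Pou4f1* read 7.13 and its hair cell relative *Pou4f3* 5.98, not above the receptor level.

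Of the regional lists, the hindbrain factors had the highest median. Of 13 measured, 11 lay above the receptor level and 9 above the off-tissue level, and the median was 10.89. *Meis2*, a Hox cofactor of the TALE class, read 12.28 ± 0.017 (SD, n = 4). *Egr2*, the Krox20 factor of hindbrain segments, read 11.82, 11.76, 11.06 and 10.96. *Irx2*, an Iroquois factor, read 11.56, 11.53, 11.16 and 11.11. For *Egr2*, *Irx2*, *Gbx2* and *Irx3* both batch 1 arrays lay above both batch 2 arrays. The batches lay apart, in either direction, for 9 of 13 hindbrain factors, beside 50.4% of all genes. *Gbx2*, which with *Otx2* sets the border of midbrain and hindbrain, read 11.08, 11.11, 10.87 and 10.95. *Irx3*, whose 10.89 is the median of the list, also belongs to the intermediate and ventral neural tube list. *Meis1* read 10.14. Factors of hindbrain neuron subtypes and of the rhombic lip were dim. *Phox2a* read 7.60, *Atoh1* 6.18 and *Ptf1a* 6.06, the last pair not above the receptor level.

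The Hox clusters divided by paralogue group. Of 37 measured Hox genes, 19 (51.4%) lay above the receptor level and 4 above the off-tissue level, and their median was 6.30. All 4 of the latter belong to groups 1 to 3, the groups of hindbrain segments, where 7 genes were measured. *Hoxb2* read 11.59, 11.47, 11.55 and 11.43. *Hoxb1* read 11.08, 11.12, 11.31 and 11.49, with both batch 2 arrays above both batch 1 arrays. *Hoxa2* read 10.65, 10.65, 10.64 and 10.47. *Hoxb3* was dimmer, at 8.70, 8.72, 8.71 and 8.95. Signal was thus not shared by all members of these groups. *Hoxa3* read 7.89, between the levels, while *Hoxd1* (5.87) and *Hoxd3* (6.13) were not above the receptor level.

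Of 14 Hox genes in groups 4 to 8, 7 lay above the receptor level and none above the off-tissue level, with signals from 5.32 for *Hoxc4* to 7.93 for *Hoxa4*. *Hoxb4*, the neighbour of *Hoxb3* in the cluster, read 6.13, 6.37, 6.37 and 6.34, below *Hoxb3* on every array. Of 16 genes in groups 9 to 13, which are used in the posterior trunk, 7 lay above the receptor level and none above the off-tissue level. Their range was 5.26 (*Hoxa11*) to 7.93 (*Hoxb9*). By cluster, the genes above the off-tissue level were 1 of 10 in cluster A, 3 of 9 in cluster B, 0 of 9 in cluster C and 0 of 9 in cluster D. With the 90th percentile in place of the 95th the count in cluster A was 3.

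**Figure D2:**
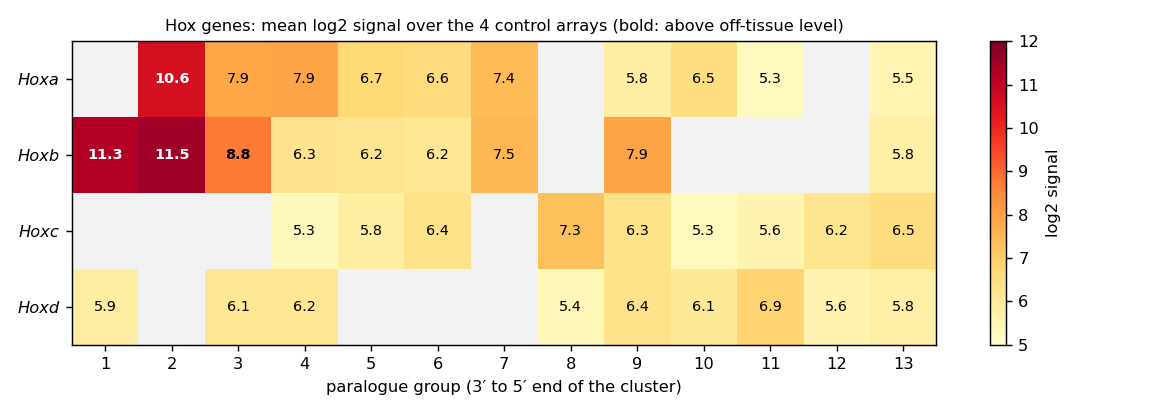
Mean log2 signal of 37 Hox genes over the 4 control arrays, by cluster (rows) and paralogue group (columns), with grey where the cluster has no such gene or the gene was not analysed here. Bold values lie above the off-tissue level on all 4 arrays, and they are *Hoxb1*, *Hoxb2*, *Hoxb3* and *Hoxa2*.

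The *Hoxb1* promoter is shown because this gene is known to be held on in the hindbrain by Hox and Pbx proteins that bind repeats next to its own start. The 250 bases before its start, from RefSeq on GRCm38.p6, plus strand, chr11:96365508-96365757, are given with a match to TGATNNAT, letters shared by many sites of Hox and Pbx together, in capitals.
Hoxb1: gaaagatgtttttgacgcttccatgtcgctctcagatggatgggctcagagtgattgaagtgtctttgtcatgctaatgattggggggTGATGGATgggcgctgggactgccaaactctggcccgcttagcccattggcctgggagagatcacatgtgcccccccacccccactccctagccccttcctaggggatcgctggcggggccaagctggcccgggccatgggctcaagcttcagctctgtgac
The match begins 162 bases before the start. On either strand the same letters stood in 2906 of 32851 windows of 300 bases around gene starts (8.85%). Counted by gene, they stood in windows of 2718 of 27025 genes. Among these were 4 of 25 Hox genes with a window, *Hoxb1*, *Hoxa2*, *Hoxb8* and *Hoxd11*. A match of letters is a description and not a measured site.

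Forebrain factors were mostly dim. Of 23 measured, 18 lay above the receptor level and 3 above the off-tissue level, and the median of 6.84 was below that of all genes. The 3 were *Tcf7l2*, *Otx2* and *Pax2*, and the last pair also belongs to the midbrain and isthmus list. With the 90th percentile in place of the 95th the count above the off-tissue level was 6, against 9 of 13 hindbrain factors, the same count as before. The brightest was *Tcf7l2*, a Wnt effector of the thalamus that is also used outside it, at 10.97, 11.04, 10.48 and 10.64. *Otx2*, a factor of forebrain, midbrain and epiblast, read 9.29, 9.35, 9.43 and 9.41, with both batch 2 arrays above both batch 1 arrays by little. *Fezf2*, a factor of the rostral forebrain, read 8.80, 8.84, 7.96 and 8.01, above the off-tissue level in batch 1 and below it in batch 2. *Vax2*, a factor of the ventral eye, read 8.56, 8.35, 8.65 and 8.70, below the off-tissue level on replicate 2 alone. Other eye and telencephalic factors ran from *Emx1* (7.61) and *Vax1* (7.44) down to *Dlx2* (6.58), *Dlx1* (6.57), *Emx2* (6.37) and *Six3* (6.34). *Nkx2-1* (6.23), *Rax* (6.16), *Tbr1* (6.12), *Dlx5* (6.06) and *Hesx1* (5.71) were not above the receptor level on all arrays.

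Midbrain and isthmus factors lay between these lists, with 12 of 12 above the receptor level, 6 above the off-tissue level and a median of 8.35. Besides *Gbx2* and *Otx2*, *Sp8* (8.80), *Pax2* (8.70), *En1* (8.57) and *Fgf8* (8.34) were above the off-tissue level. *Fgf8*, the signal of the isthmic organiser, read 8.51, 8.40, 8.26 and 8.19, each just above that level. *En2*, the partner of *En1* in the midbrain, read 6.92, and *Wnt1*, a signal of the midbrain side of the border, read 7.24, 7.53, 6.88 and 6.67.

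Retinoic acid is a vitamin A derivative that turns on anterior Hox genes and *Cyp26a1*. Of 17 measured genes of its pathway, 15 lay above the receptor level and 9 above the off-tissue level. *Crabp1*, a cytoplasmic retinoic acid binding protein, read 14.48, 14.40, 14.53 and 14.51, ranking 4 among the 19938 genes. *Crabp2* read 12.58, 12.49, 12.84 and 13.01. The receptor genes *Rara* (9.98) and *Rarg* (9.11) were above the off-tissue level, and *Rarb*, itself a known target of retinoic acid, read 7.29. The synthesis enzymes were dim. *Aldh1a2*, the main enzyme of the trunk, read 4.93 to 5.05 over the arrays and *Aldh1a1* 5.58, while *Rdh10*, which makes their substrate, read 9.37. The degrading enzymes differed between batches in opposite directions, as given with the batch results.

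Along the dorsoventral axis, the members above the off-tissue level on all 4 arrays were dorsal or not restricted to the ventral side. Of 14 dorsal factors, 12 lay above the receptor level and 5 above the off-tissue level. Besides *Zic2*, these were *Pax3* (10.38), *Pax7* (9.52), *Olig3* (9.37) and *Zic1* (9.05). The roof plate genes *Wnt3a* (6.74), *Msx1* (7.24) and *Gdf7* (8.24) lay between the levels. The dorsal factor *Msx2* read 8.68, 8.76, 7.57 and 8.09, above the off-tissue level in batch 1 and below it in batch 2. Of 15 intermediate and ventral factors, 14 lay above the receptor level and 4 above the off-tissue level. They were *Dbx1* (11.13), *Pax6* (11.04), *Irx3* (10.89) and *Irx5* (10.21), none of which is restricted to the ventral neural tube. The ventral factor *Nkx2-9* read 9.13, 8.98, 7.51 and 7.87, above the off-tissue level in batch 1 and below it in batch 2. Other ventral factors, *Nkx6-1* (7.84), *Foxa2* (7.79), *Shh* (7.13) and *Olig2* (6.87), lay between the levels, and *Nkx2-2* read 5.80, not above the receptor level.

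Neurogenic and neuronal genes were present at low signal. All 28 measured lay above the receptor level and 8 above the off-tissue level, and the median was 7.95. The count above the off-tissue level was 16 with the 90th percentile, so many of these genes lay just below it. *Stmn2*, a tubulin binding protein of young neurons, was the brightest at 12.20, 12.10, 11.75 and 11.72. The Notch ligand *Dll1* followed at 9.66, *Nefl*, a neurofilament gene, at 9.63 and *Tubb3*, the neuronal beta tubulin gene, at 9.34. Proneural factors were dimmer. *Neurog1* read 8.11 and *Neurog2* 6.56. The motor and interneuron factors *Isl1* (6.22), *Lhx1* (6.38), *Lhx5* (6.80) and *Tlx3* (6.97) stood among the dimmest of the list.

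Of 23 Notch pathway genes, 23 lay above the receptor level and 17 above the off-tissue level. The receptor genes *Notch2* (10.85), *Notch1* (10.22) and *Notch3* (9.80) were bright and *Notch4*, mainly an endothelial receptor, read 6.74. Among ligands *Jag1* read 10.44 and *Dll1* 9.66, against 7.01 for *Dll4*. Among targets *Hes5* read 10.41 and *Hes1* 9.35, against 7.18 for *Heyl*. *Lfng*, a glycosyltransferase that modifies Notch receptors, read 11.03, 11.02, 10.61 and 10.46. *Rbpj*, the DNA binding partner of the pathway, read 10.75 by its brighter row and 5.18 by the other.

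Glial genes lay at both ends of the range. Of 18 measured, 14 lay above the receptor level and 6 above the off-tissue level. *Gja1*, the connexin 43 gene that radial glia also use, read 11.89, 11.88, 11.89 and 11.88, nearly the same on every array. *Glul*, glutamine synthetase, read 11.57 and *Slc1a3*, a glutamate transporter, 8.71. *Gfap* (5.82), *Aqp4* (5.42) and *S100b* (6.12) of mature astrocytes and *Mog* (6.20) of myelin were not above the receptor level.

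Genes of pluripotency were still read on Day 4. Of 13 general pluripotency genes, 13 lay above the receptor level and 11 above the off-tissue level, with a median of 10.69. The neural progenitor markers had a median of 10.82, but medians of different genes do not compare transcript numbers. *Sall4*, a zinc finger factor, read 12.11 ± 0.106 (SD, n = 4), *Utf1* 11.96 and the RNA binding protein gene *Lin28a* 11.86. *Pou5f1* read 10.80, 10.78, 10.89 and 10.62. *Nanog* read 10.70, 10.74, 10.71 and 10.47. For both factors the arrays of the batches overlapped. No array of undifferentiated ES cells was analysed here, so how these signals changed during differentiation was not tested. Processed copies of these genes could share their probes, and this was not tested.

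Naive pluripotency genes, which are lost first when ES cells leave self-renewal, were dimmer. Of 14 measured, 13 lay above the receptor level and 5 above the off-tissue level, with a median of 8.12. *Dppa5a* stood apart at 11.29, 11.19, 11.85 and 11.51, followed by *Klf2* at 9.10. *Esrrb* read 7.99, *Klf4* 7.54 and *Prdm14* 6.16, the last not above the receptor level. Of 14 genes of the primed epiblast, 13 and 9 lay above the levels. *Fgf15*, also a gene of neural tube progenitors, read 11.78, 11.71, 11.31 and 11.28. *Pim2*, a kinase gene, read 11.42 and *Fst*, which encodes the activin antagonist follistatin, 10.71. *Lefty2* read 5.47.

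Mesoderm and primitive streak genes were dim, with 17 of 22 above the receptor level, none above the off-tissue level (3 with the 90th percentile) and a median of 7.08. *Gata4* (8.32), *Twist1* (8.26) and *Nkx2-5* (8.19) were the brightest, and *Cdx4* (5.12), *Kdr* (5.83) and *Mesp1* (5.98) the dimmest. Of 15 endoderm genes 3 lay above the off-tissue level. They were *Cxcr4* (10.84), *Dab2* (9.79 by its brighter row) and *Lama1*, which encode a chemokine receptor, an endocytic adaptor and a laminin chain and are not restricted to endoderm. *Foxa1* (6.95), *Sox17* (6.41), *Afp* (6.07) and *Ttr* (5.52) were dim. Of 12 trophoblast genes, *Krt8* (10.83) and *Krt18* (10.06) alone lay above the off-tissue level, and *Elf5* and *Tpbpa*, which define the lineage, read 5.61 and 6.10.

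Surface ectoderm and placode genes held more bright members, 9 of 18 above the off-tissue level, 16 above the receptor level and a median of 8.26. The simple epithelial keratin genes *Krt8* and *Krt18*, also in the trophoblast list, the tight junction gene *Cldn6* (10.74) and the E-cadherin gene *Cdh1* (10.29) led. The epidermal genes *Krt14* (6.71) and *Krt5* (5.95) and the stratification factor *Trp63* (6.81) were dim. Of 14 neural crest genes, 14 lay above the receptor level and 3 above the off-tissue level. These were *Ednrb* (10.75), *Pax3* and *Sox9*, which neural progenitors also use, while *Sox10* (6.85), *Tfap2a* (7.02) and *Mitf* (7.14 by its brighter row) were the dimmest.

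Since the sources differ on the use of feeder cells, fibroblast genes were read as well. Of 17, 12 lay above the receptor level, 3 above the off-tissue level, and the median was 7.37. *Acta2* (11.18) and *Tagln* (9.40) of smooth muscle and contractile cells and *Col1a1* (8.45) were the 3. *Col3a1* read 7.01, and *Dcn* (5.80), *S100a4* (5.74), *Postn* (5.10), *Fap* (4.59) and *Lum* (4.48) were not above the receptor level. The part of feeder cells in the signals was not tested beyond these values. Endothelial genes had 1 of 11 above the off-tissue level, *Egfl7* at 8.78. *Cdh5*, which defines the lineage, read 6.46 and *Tek* 6.09.

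**Figure D3:**
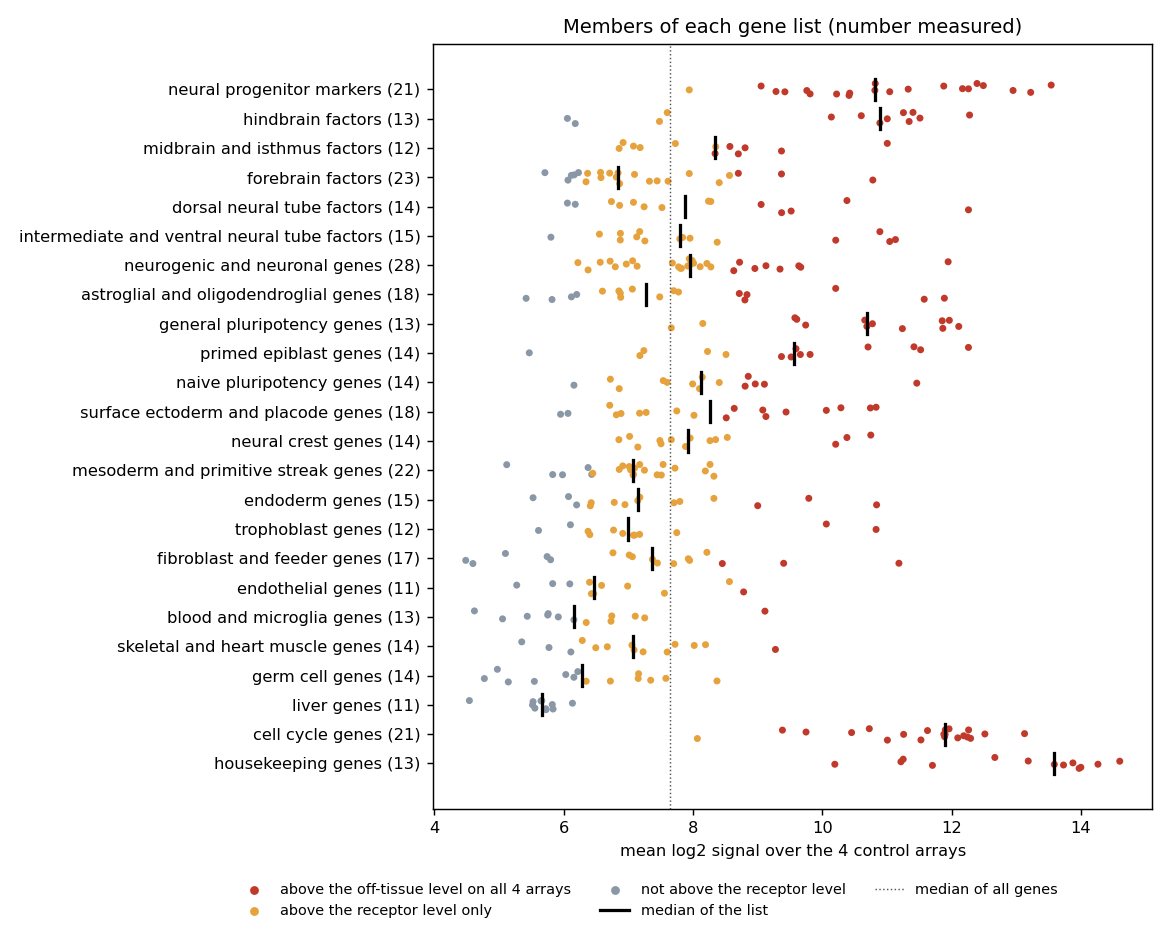
Mean log2 signal over the 4 control arrays (horizontal axis) of each measured member of 24 gene lists, with a vertical bar at the median of each list and a dotted line at the median of all genes. Neural progenitor, hindbrain, general pluripotency, cell cycle and housekeeping lists have medians over 10, while the forebrain and mesoderm medians are 6.84 and 7.08.

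In the FGF, Wnt and Hedgehog pathways more of the other listed genes than of the ligand genes lay above the off-tissue level. Those others include receptors, transducers, antagonists, feedback regulators and targets. Of 22 FGF ligand genes 3 lay above the off-tissue level, *Fgf15* (11.52), *Fgf4* (8.80) and *Fgf8* (8.34). *Fgf2*, an ES cell and progenitor mitogen, read 5.23, and the dimmest, *Fgf7*, read 5.14. Of 15 genes of FGF receptors and feedback regulators 12 lay above it. *Fgfr1* read 12.31, *Fgfr2* 10.22, *Fgfr3* 9.16 and *Fgfr4* 6.58. The feedback inhibitors *Spred2* (10.95) and *Spred1* (10.40) and the ETS factor *Etv5* (10.35), a target of FGF signalling, were bright.

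Of 19 Wnt ligand genes, 16 lay above the receptor level and 1 above the off-tissue level. It was *Wnt8a*, a ligand of the early posterior embryo and of the presumptive hindbrain, at 9.14, 9.20, 9.89 and 9.84. The next ligand, *Wnt4*, read 7.87. Of 20 Wnt receptors, antagonists and targets, 15 lay above the off-tissue level, led by the secreted antagonists *Sfrp1* (13.22) and *Sfrp2* (12.64) and the receptor gene *Fzd7* (12.62). *Fzd2* read 11.16, and *Sp5*, a direct target, read 6.84.

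Of 13 Hedgehog genes 7 lay above the off-tissue level. *Smo* (11.40), *Sufu* (11.36), *Gli3* (11.29) and *Ptch1* (11.18), which receive and transmit the signal, were bright. The ligand genes *Ihh* (7.62), *Shh* (7.13) and *Dhh* (5.77) and the target *Hhip* (6.98) were dim, and *Gli1*, a target raised by the pathway, read 8.05, 7.86, 7.48 and 7.32. Of 27 BMP and Nodal genes 14 lay above it. The target *Id2* read 12.57, the mediator *Smad4* 12.12 and the receptor gene *Bmpr1a* 11.33. Among ligands *Bmp7* read 9.51 and *Bmp2* 5.63, and the antagonists *Nog* and *Chrd* read 7.32 and 7.09.

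Genes of proliferation were bright. Of 21 cell cycle genes, 21 lay above the receptor level and 20 above the off-tissue level, with a median of 11.89. *Pcna*, the sliding clamp of DNA replication, read 13.13, *Ccna2* 12.51 and *Mki67* 11.90. *Cdkn2a*, an inhibitor of cycling, was the 1 member below the off-tissue level, at 8.07. The 13 housekeeping genes had a median of 13.59, and 32 of 33 cytosolic ribosomal protein genes lay above the off-tissue level with a median of 13.11. *Rplp2*, at 7.62, was the exception among them. *Eef1a1*, the translation factor gene, was the brightest gene of all at 14.60 ± 0.016 (SD, n = 4). Among 13 stress genes the metallothionein gene *Mt2* (13.76) and the chaperone gene *Hspa5* (12.67) led, and *Fos*, an immediate early gene, read 7.09.

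Lists of unrelated tissues had medians of 5.66 for liver, 6.16 for blood and microglia, 6.28 for germ cells and 7.07 for muscle, all below the median gene. Liver genes had 0 of 11 above the receptor level, from 4.54 for *Cyp3a11* to 6.13 for *G6pc*, and *Alb*, the albumin gene, read 5.66. Of 13 blood and microglia genes 6 lay above the receptor level, and *Ptprc*, which encodes the leukocyte antigen CD45, read 5.75. *Cd68*, a lysosomal gene that is not restricted to macrophages, read 9.11. *Actc1*, a cardiac actin gene, read 9.27 and *Myf5* 5.35 among 14 muscle genes. *Prdm1* (8.37) was the brightest of 14 germ cell genes and *Sycp1* (4.77) the dimmest. Of 8 Y-linked genes, *Eif2s3y* (9.36) and *Uty* (8.71) lay above the off-tissue level, while *Xist*, the RNA of the inactive X, read 5.22 in this XY line.

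Several of the brightest genes belong to no list. *Baiap2l1* read 14.55, but its 3 rows ran from 9.16 to 14.55, so its rank rests on the choice of row. *H4c4*, a histone H4 gene, read 14.27, the thioredoxin gene *Txn1* 14.17 and *Eif4a1*, a translation factor gene, 13.94. *Mest*, an imprinted gene expressed from the paternal copy, read 13.68, and the cyclin dependent kinase gene *Cdk4* 13.71. By class of gene, 41.4% of 18556 protein-coding genes lay above the off-tissue level, 69.8% of 53 snoRNA genes, 6.67% of 675 lncRNA genes and 5.39% of 297 microRNA genes. *Rn7sk*, a small nuclear RNA that restrains transcription elongation, read 14.59, and *Tug1* (12.48) and *Gas5* (11.80 by the brightest of its 4 rows) were the brightest lncRNA genes.

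Of the microRNA genes 16 lay above the off-tissue level. A row of this array reads the precursor or host RNA in the labelled sample, not the mature form. The 5 brightest were *Mir692-1* (11.32), *Mir92b* (10.02), *Mir7-1* (9.62), *Mir139* (9.29) and *Mir667* (9.24). Mature sequences of 3 that are known from neural tissue are shown from RefSeq on GRCm38.p6, with the seed (bases 2 to 8) in capitals, so that their target classes can be seen.
mmu-miR-92b-3p: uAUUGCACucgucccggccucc
mmu-miR-7a-5p: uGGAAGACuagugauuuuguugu
mmu-miR-139-5p: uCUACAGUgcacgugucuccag
No seed is shared among these 3. *Mir92b* lies on chromosome 3 (minus strand, chr3:89227126-89227147 for the mature form), and its array values, from 9.91 to 10.09, overlapped between batches. *Mir7-1* read 9.58, 9.86, 9.40 and 9.65 and *Mir139* 9.39, 9.20, 9.29 and 9.27, also with overlap.

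Dim and bright genes differed in the sequence around their starts. RefSeq windows of 300 bases, from 250 before to 50 after the start on GRCm38.p6, were at hand for 15006 of 18556 protein-coding genes (80.9%). The CG dinucleotide, the site of DNA methylation, is rare in most of the genome and dense in CpG islands, which cover the promoters of widely used genes. Genes above the off-tissue level had a median of 23 CG per window, those between the levels 15.5 and those not above the receptor level 3. Windows with 10 or more CG made up 92.6%, 67.3% and 16.7% of these classes, against 63.5% of all 15006. Without receptor genes the dimmest class had 21.5%. Over 10 equal classes of genes by signal the share ran from 5.53% in the dimmest to 94.9% in the brightest, and most of the rise lay in the dimmer part of the range. Across genes, which are not independent replicates, Pearson's r of signal and CG count was 0.60, and 0.55 without the receptor genes. Within the genes above the off-tissue level it was 0.089. Median GC content moved with it, at 59.0% between the levels and 46.7% for genes not above the receptor level.

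**Figure D4:**
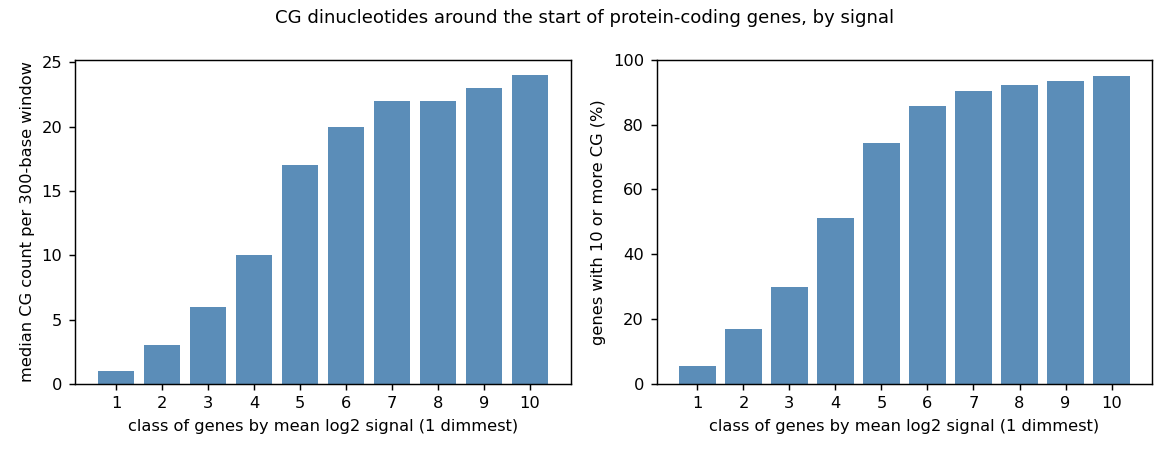
Median number of CG dinucleotides per 300-base window around the gene start (left) and percent of genes with 10 or more (right), for 10 equal classes of 15006 protein-coding genes ordered by mean log2 signal (horizontal axis, 1 dimmest). The percent is 5.53 in the dimmest class, over 90 from class 7 on and 94.9 in the brightest.

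Not every gene followed that order. The 250 bases before the start are shown for *Sox2*, bright with many CG, and *Alb*, dim with few, which follow it, and for *Fabp7*, bright with few, which does not. All are on the plus strand of GRCm38.p6, *Sox2* at chr3:34649745-34649994, *Fabp7* at chr10:57784673-57784922 and *Alb* at chr5:90460620-90460869, with each CG in capitals.
Sox2: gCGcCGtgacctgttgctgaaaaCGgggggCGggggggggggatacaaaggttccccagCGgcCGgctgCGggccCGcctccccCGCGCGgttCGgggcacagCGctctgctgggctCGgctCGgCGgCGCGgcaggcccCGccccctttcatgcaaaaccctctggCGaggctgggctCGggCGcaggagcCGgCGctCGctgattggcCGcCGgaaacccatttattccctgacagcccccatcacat
Fabp7: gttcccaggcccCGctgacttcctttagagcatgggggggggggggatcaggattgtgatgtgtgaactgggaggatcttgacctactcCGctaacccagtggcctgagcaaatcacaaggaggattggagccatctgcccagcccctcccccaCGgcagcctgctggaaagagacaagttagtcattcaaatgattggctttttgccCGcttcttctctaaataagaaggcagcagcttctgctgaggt
Alb: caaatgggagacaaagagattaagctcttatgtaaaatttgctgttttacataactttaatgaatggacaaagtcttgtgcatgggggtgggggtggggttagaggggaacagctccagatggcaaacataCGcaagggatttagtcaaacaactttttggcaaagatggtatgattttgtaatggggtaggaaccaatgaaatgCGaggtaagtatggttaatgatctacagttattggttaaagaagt
The printed stretches hold 27 CG for *Sox2*, 4 for *Fabp7* and 2 for *Alb*, beside mean signals of 12.39, 12.95 and 5.66.

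The 4 cultures repeated closely. Pearson's r across genes was 0.9984 between replicates 1 and 2 and 0.9977 between replicates 3 and 4, against 0.9945 to 0.9961 for arrays of different batches. No gene differed by more than 1 on the log2 scale within a batch, and 34 to 49 genes did between arrays of different batches. The median SD within batches was 0.0746 and the median SD over the 4 arrays 0.097. For 50.4% of all genes both arrays of a batch lay beyond both arrays of the other, which with 2 arrays a batch is no test of a difference. This share was 65.3% for genes above the off-tissue level and 32.8% for those not above the receptor level.

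The question whether the control profile differs between differentiation series was put to limma, over 23410 rows with a gene symbol and with adjustment by Benjamini and Hochberg. At an adjusted p of 0.05 or less 575 rows (2.46%) were higher in batch 2 and 711 (3.04%) were lower, 1286 rows or 5.49% in all. The call rests on the variance that limma shares between rows, since a plain linear model with the same terms called 0 rows (3031 at an unadjusted p under 0.05), and limma over all 35556 rows also called 0 (5075 at an unadjusted p under 0.05). Leaving out replicate 1, 2, 3 or 4 gave 122, 82, 606 and 1919 rows. Such a fit sets 1 array against 2, and the spread comes from the other batch alone, so the lone array is assumed to vary like the arrays of that batch. What it calls describes how much a value leans on 1 array and is no further support for it. With 2 cultures a batch, a batch of differentiation and a batch of array work cannot be told apart.

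Among the genes lower in batch 2, *Timp3*, an inhibitor of matrix proteases, read 9.83 and 9.81 in batch 1 and 8.10 and 8.15 in batch 2. Its log2 difference was -1.70 (standard error 0.072, adjusted p = 8.38e-04 from limma). *Foxi3*, a factor of placodal ectoderm, read 10.54 and 10.69 against 8.94 and 9.07 (-1.62, adjusted p = 0.0012 from limma). *Krt8* read 11.40 and 11.45 against 10.11 and 10.36 (-1.19, adjusted p = 0.00337 from limma). All 3 also passed the threshold in each of the 4 fits that left out an array.

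Over all 19938 genes 673 were lower and 495 higher, with a median difference of 0.0048. Of 18 surface ectoderm and placode genes 7 were lower and 0 higher, with a median difference of -0.30. They were *Krt8*, *Cldn6* (-1.16), *Krt18* (-1.02), *Gata3* (-0.93), *Cdh1* (-0.69), *Grhl3* (-0.54) and *Eya2* (-0.38). Without replicate 1 or replicate 2 the count was 4 or 3, and *Krt8*, *Krt18* and *Cldn6* were called in every such fit. Of 14 neural crest genes 6 were lower and 0 higher, with *Ets1* (-1.06) and *Tfap2b* (-0.94) furthest apart, and without replicate 1 or 2 the count was 1, *Ets1*. Of 17 fibroblast genes 3 were lower, *Acta2* (-0.98), *Tagln* (-0.86) and *Dcn* (-0.38), and leaving out any array left *Acta2* and *Tagln*. The part of any such cells in the difference was not tested. Other lists held calls toward lower signal too. Of 12 trophoblast genes 5 were lower, among them *Krt8*, *Krt18* and *Gata3* of the ectoderm list. Also lower were 5 of 14 primed epiblast genes, with 1 higher, 4 of 14 naive pluripotency genes and 7 of 27 BMP and Nodal genes. So were 5 of 23 Notch pathway genes and 3 of 11 endothelial genes, with 0 higher. Of 13 stress genes 6 were lower and 0 higher, with *Atf3*, a stress induced factor, at -0.73. Their count was 1 without replicate 1, 0 without replicate 2 and 3 without replicate 3.

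Higher in batch 2 was *Ccng2*, a cyclin gene of cell cycle arrest, at 7.29 and 7.50 in batch 1 against 8.70 and 8.67 (1.29, adjusted p = 0.00221 from limma). *Bnip3*, a mitophagy gene, read 8.60 and 8.56 against 9.55 and 9.75 (1.07, adjusted p = 0.00337 from limma). The lactate transporter gene *Slc16a3* differed by 0.96, and like *Ccng2* and *Bnip3* it was called whichever array was left out. The glycolysis gene *Pgk1* differed by 0.56 and lost its call without replicate 1 or 2. Of 21 cell cycle genes 5 were higher and 0 lower, beside 495 higher and 673 lower of all 19938 genes. These were *Cdkn1b* (0.47), an inhibitor of cycling, and the mitotic genes *Aurka* (0.46), *Bub1* (0.42), *Plk1* (0.40) and *Cdk1* (0.34). Without replicate 1, 2 or 3 none of the 5 was called. Of 33 ribosomal protein genes 0 were called by limma (1 at an unadjusted p under 0.05), and in Hox clusters A, B, C and D 0 were called (1, 2, 2 and 0 at an unadjusted p under 0.05). Without replicate 4, 1 gene of cluster C was called.

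Regional genes differed in both directions, as did all 19938 genes, of which 673 were lower in batch 2 and 495 higher. Of 13 hindbrain factors 3 were lower in batch 2, *Egr2* (-0.78, 95% interval -0.96 to -0.60, adjusted p = 0.00574 from limma), *Irx2* (-0.41) and *Irx3* (-0.38). *Egr2* was called whichever array was left out, and the Iroquois pair was lost without replicate 1, 2 or 3. *Hoxb1* differed by 0.30 (95% interval 0.10 to 0.50), which missed the threshold (adjusted p = 0.0994 from limma). Of 14 dorsal factors 5 were lower, among them *Msx2* (-0.89), *Pax3* (-0.48) and *Pax7* (-0.36), and *Olig3* was higher (0.69, adjusted p = 0.0119 from limma). None of these dorsal calls held without replicate 1 or 2. Of 15 intermediate and ventral factors 4 were lower. *Nkx2-9*, a ventral midline factor, was furthest apart at 9.13 and 8.98 against 7.51 and 7.87 (-1.37), and it was the 1 call of the 4 that held without replicate 1, 2 or 3. Of 23 forebrain factors 4 were lower, with *Fezf2* (-0.83) called whichever array was left out, and 2, 1 and 2 were lower without replicates 1, 2 and 3.

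In the Wnt pathway *Wnt8a* was higher (0.70), a call lost without replicate 1 or 2. Of 20 Wnt receptors, antagonists and targets 7 were lower, with *Dkk1*, a secreted antagonist, at -0.94, and without replicate 1 or 2 the count was 1, *Dkk1*. In the retinoic acid pathway *Cyp26a1*, an enzyme that degrades retinoic acid, read 7.23 and 7.15 against 8.01 and 7.90 (0.76). Its relative *Cyp26b1* read 9.25 and 9.03 against 8.25 and 8.50 (-0.76). The call of *Cyp26a1* was lost without replicate 2, and that of *Cyp26b1* without replicate 1 or 2. Of 21 neural progenitor markers *Nes* alone was called, with a difference of -0.46 (adjusted p = 0.0405 from limma), and this call was lost without replicate 1, 2 or 3.

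**Figure D5:**
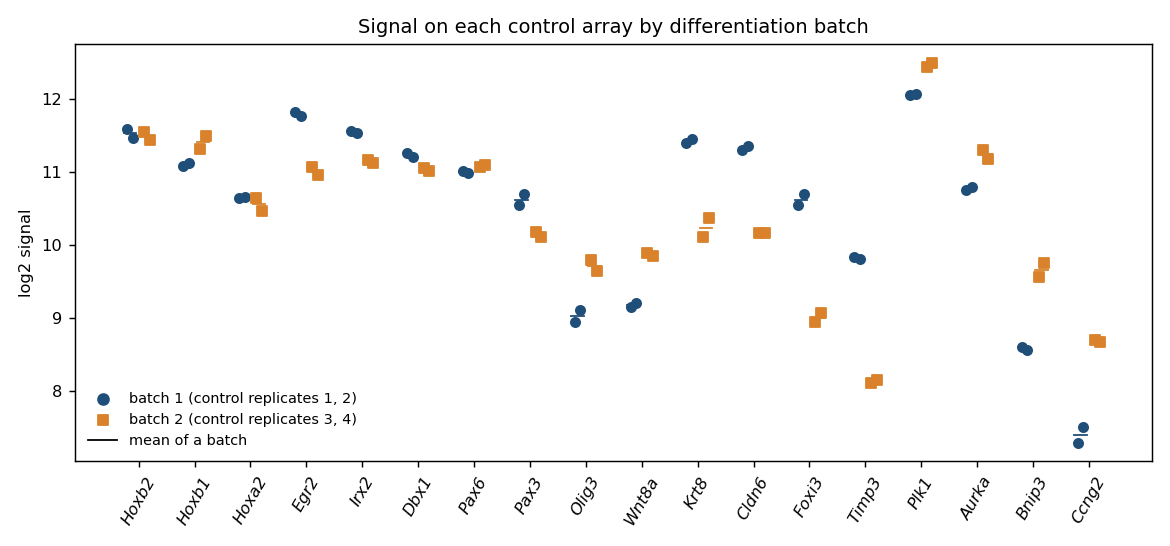
Log2 signal of 18 genes on each control array, with batch 1 (circles, replicates 1 and 2) beside batch 2 (squares, replicates 3 and 4) and a line at the mean of each batch. The batches overlap for *Hoxb2*. By batch means *Krt8*, *Cldn6*, *Foxi3* and *Timp3* lie over 1 lower in batch 2, and *Bnip3* and *Ccng2* over 1 higher.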

How the data were processed

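Of 8 arrays the 4 control arrays were used, as 1 group of 4 cultures in 2 batches. The log2 signals per transcript cluster were used as the authors deposited them. The submitters' processing notes name Partek, while how background was corrected, arrays were normalized and probes were summarised, and on which build, is not given in sources used here. Among 35556 rows 21789 had 1 gene symbol in the platform annotation, 1621 had several and 12146 were not named, and 47.9% of the last lay above the receptor level. Of the former 21698 were matched to a gene table of GRCm38.p6. Genes were 19938, of which 999 had several rows, and the brightest row by mean was kept. A gene was above a level if it exceeded it on all 4 arrays.

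Batch 2 was compared with batch 1 over 23410 rows with a symbol by limma 3.58.1 in R 4.3.3 with Benjamini-Hochberg adjustment, after a test on simulated data. The paper calls the cultures biological replicates. Other steps used Python 3.11.15, pandas 2.3.3 and numpy 2.4.6. The number of arrays limits the precision. Alternatives were other levels, normalization, filters, variance models, gene rows, single batches and leaving out each array.

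The cells described and the 44 gene lists were chosen with earlier results of these data known, and the off-tissue level was chosen after the signals were seen. Genes named are the 5 highest and 5 lowest of each list, the 4 with the smallest batch p, all members of the Hox, Sox, Pax and Pou lists, genes the paper names, and the genes that lead in signal, spread or batch difference over all genes. Of 263 genes named with a signal, 26 fall outside this rule. They were picked with their values in view, and include *Alb*, *Nanog*, *Notch1*, *Six3*, *Emx2*, *Mki67* and *Cdh5*.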

Additional observations from a re-analysis of the deposited data

Results flagged for a closer look

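Of 263 genes, 7 had 1 array far from the other 3 of the 4 control arrays, a lower share than the 1 in 20 that chance alone gives. That rate holds for 4 arrays of 1 group, while these come from 2 batches, so the flags are a description only. *Sox1* read 10.9721 in replicate 3. *Notch1* read 9.932 in the same culture. In replicate 4, *Hoxa2* read 10.4667 and *Nanog* 10.4723, each below the other arrays, while *Hoxb3* read 8.9493, above them. *Myf5* of skeletal muscle, a gene not above the receptor level, read 5.2291 there. *Hoxb4* read 6.1347 in replicate 1, below the other arrays.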

How the results depend on the processing

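The number of genes above the receptor level, 13837, was 7816 under the off-tissue level and 10980 to 16351 under the other alternatives, and the number above the off-tissue level was 7420 to 9331. The median spread between cultures of a batch was 0.0742 to 0.0757. Of the batch calls, 1286, there were 0 with limma over all rows, 0 with a plain linear model, 569 when a change of at least 1.4-fold was also asked for, 1147 to 1530 with the other variance models, filters and normalization, and 82 to 1919 when an array was left out. The causes were not tested. Every named batch difference kept its sign, which is no support for it. Other filters and variance models keep the same difference of batch means. Leaving out an array cannot turn the sign of a gene whose batches do not overlap. Of 467 values under alternatives 149 were on the other side of the threshold. Counts per list depend more on the level. Without the muscle list, or with the 90th percentile, 11 of 44 list counts above the off-tissue level moved by over 1.5 times, and 38 of 616 did over all alternatives, as did 66 of 616 above the receptor level, 29 of them under the off-tissue level. With the mean of the rows of a gene 12 named signals moved by more than their SD. Leaving out arrays cannot move a mean by its SD, so it gives no check of a signal. Scanner values were not analysed here, so signal over background is unknown and dim genes have no detection limit. No paired analysis was possible because only control arrays were compared and the batches share no replicate number.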
